A study of Mus musculus with 4 samples.

Results

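Chromatin contacts that were enriched over the expected 5C frequency in keratinocytes and not in thymocytes were collected at the Epidermal Differentiation Complex (EDC) locus of the mouse. A contact is a pair of one forward and one reverse HindIII fragment, and its ratio is the corrected 5C frequency divided by the frequency expected at that genomic distance in the same library. A contact was included when it was listed in all 4 libraries, its ratio was at least 1.5 in both keratinocyte libraries and its ratio was at most 1 in both thymocyte libraries. Of the 23395 contacts listed in all 4 libraries, 275 met this rule (1.18%). The same rule with the cell types exchanged was met by 197 contacts (0.842%), and 515 contacts had a ratio of at least 1.5 in all 4 libraries (2.2%). Since the ratios of all 4 libraries chose the contacts, those ratios are given as a description and carry no test, and no p-value is attached to the counts.

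The 4 libraries comprised 2 of primary epidermal keratinocytes from the skin of newborn C57Bl/6 mice and 2 of primary thymocytes, the total cells released from crushed C57Bl/6 thymi. The keratinocytes were plated at high density on collagen in low calcium medium and kept at 32 °C for 15 hours, whereas the thymocytes were not cultured. All cells were fixed in 1% formaldehyde for 10 minutes, and the labels name no transgene, deletion or other treatment. The age of the thymus donors is not given, and the labels do not say whether libraries of a cell type, which the study calls biological replicates, came from separate animals. The 5C tables hold contacts of genomic DNA and no transcripts, so the cell types were not checked against marker genes here.

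The EDC holds families of genes that keratinocytes switch on when they differentiate into the cornified cells of the skin surface. These include loricrin, involucrin and the small proline-rich (Sprr) and late cornified envelope (Lce) proteins that build the cornified envelope, the filaggrin-like proteins, and calcium-binding S100 proteins. Topologically associating domains (TADs) are stretches of the genome whose fragments meet each other more often than they meet fragments across the borders. Thymocytes are developing T cells, in which most of the epidermal genes are silent. In the 5C method a forward and a reverse probe are joined where their fragments were ligated to each other, so every contact is read as a joined pair of probes.

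The joined probes of 5 of the 10 contacts with the largest gap between the cell types are shown because their fragments lie at or near named epidermal genes. Each line gives the 30 genomic bases of the forward probe followed by the 30 of the reverse probe, 5′ to 3′, with the HindIII site at the junction in capitals. All of these probe sequences matched the mm9 genome at their stated positions.
contact 1, forward 1046 with reverse 655: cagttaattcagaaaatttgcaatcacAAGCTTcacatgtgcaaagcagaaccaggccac
contact 4, forward 188 with reverse 126: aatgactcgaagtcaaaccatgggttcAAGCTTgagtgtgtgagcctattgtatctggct
contact 5, forward 810 with reverse 1559: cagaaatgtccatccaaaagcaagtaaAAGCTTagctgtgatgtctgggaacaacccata
contact 8, forward 1144 with reverse 100: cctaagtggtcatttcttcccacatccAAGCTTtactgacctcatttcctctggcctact
contact 9, forward 980 with reverse 1114: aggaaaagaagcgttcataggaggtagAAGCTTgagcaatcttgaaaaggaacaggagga
The 3 fragments that carried most of the 275 contacts were all read by reverse probes, whose genomic bases are given next with the 3 bases of the cut HindIII site in capitals.
reverse 1415, the fragment at chr3:94152912-94155619: CTTcctaactctgctgatctctttcccttt
reverse 966, the fragment at chr3:92784758-92786479: CTTttaaacagtgtgactggtgtgctacag
reverse 685, the fragment at chr3:91897650-91900339: CTTtagtcatccccaagtcttttctagtag

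The libraries differed in how many contacts they listed and in how alike they were. Keratinocyte library 1 listed 95692 contacts, keratinocyte library 2 listed 67210, and the thymocyte libraries listed 45861 and 53420. The depth in reads is unknown, because the deposited values are corrected frequencies. Over the 23395 contacts listed in all 4 libraries, the log2 ratio of keratinocyte library 2 had a higher Pearson correlation with thymocyte library 1 (r = 0.31) than with keratinocyte library 1 (r = 0.23). The Spearman correlations of the same pairs were 0.37 and 0.31. Keratinocyte library 1 correlated with the thymocyte libraries at r = 0.04 and 0.06, and the thymocyte libraries correlated with each other at r = 0.18. These correlations are across contacts that share fragments, and are given without a p-value. By these ratios at contacts listed in all 4 libraries, keratinocyte library 2 was no closer to the other keratinocyte library than to thymocyte library 1. The ratio removes the fall of frequency with distance, and raw counts were not used here. The spread of the log2 ratio was widest in keratinocyte library 1, with an SD of 1.24 over contacts, against 0.91 in keratinocyte library 2 and 0.92 and 0.83 in the thymocyte libraries.

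Within the 275 contacts the ratio had a median of 2.10 in keratinocyte library 1 and 2.04 in keratinocyte library 2. In the thymocyte libraries the medians were 0.714 and 0.730. The highest keratinocyte ratios were 6.63 and 7.27, and the lowest thymocyte ratios were 0.00276 and 0.0586. The keratinocyte libraries differed by a median of 0.42 on the log2 scale at these contacts, and by more than 1 at 49 of them. The log2 gap between the lower keratinocyte ratio and the higher thymocyte ratio ranged from 0.64 to 3.03, with a median of 1.17. It was at least 1 in 186 contacts and at least 2 in 21 contacts. A ratio of at least 2 in both keratinocyte libraries together with at most 0.5 in both thymocyte libraries was reached by 7 contacts. The corrected frequency itself, which the rule used only through the ratio, was higher in both keratinocyte libraries than in both thymocyte libraries in 253 of the 275 contacts, against 38.2% of all contacts. As the frequency is the ratio times the expected value, the rule largely sets this count, and it is no separate support. At the thresholds, the 5 contacts just inside and just outside the limit of 1.5 had ratios of 1.503 to 1.508 and 1.491 to 1.4996 in keratinocyte library 1, and 1.501 to 1.514 and 1.492 to 1.499 in keratinocyte library 2. Around the limit of 1 they were 0.991 to 0.999 inside and 1.00 to 1.01 outside in thymocyte library 1, and 0.989 to 0.997 inside and 1.00 to 1.01 outside in thymocyte library 2.

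The q-value that the authors deposited for each contact of a library called few of these contacts in both keratinocyte libraries. A q-value under 0.05 in both was found in 42 of the 275 (15.3%), and this call was made in 2.03% of all contacts. The call was made in library 1 only for 55 contacts, in library 2 only for 81 and in neither for 97. None of the 275 had it in a thymocyte library, which the rule fixes, because a ratio of at most 1 is not above the expected frequency. Over all contacts, 3.77% had it in both thymocyte libraries. The q-values derive from the same frequencies as the rule, so the higher share in keratinocytes is no independent support. The 42 contacts had a median distance of 2386.5 kb, against 1783 kb for the other 233. Of the 42, 32 (76.2%) joined different TADs, against 84.5% of the other 233 and 68.5% of all contacts.

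How far the contacts repeated in a library that had not chosen them was read by leaving each library out of the rule in turn, over the contacts listed in all 4 libraries. Of the 638 contacts that met the rule in the other 3 libraries, 43.1% reached a ratio of 1.5 in keratinocyte library 1, against 28.6% of all contacts. Of the 1499 contacts chosen without keratinocyte library 2, 18.3% reached 1.5 in that library, against 20.1% of all contacts. The median ratio of these 1499 contacts in keratinocyte library 2 was 1.03, and that of all contacts was 1.10. Enrichment in keratinocyte library 1 with none in thymocytes thus did not go with a higher share of enriched contacts in keratinocyte library 2 than among contacts at large. Against the contacts that were at most 1 in both thymocyte libraries (24.7% of all), whatever their keratinocyte ratio, the share was higher, at 18.3% against 11.02%. For keratinocyte library 1 the corresponding shares were 43.1% and 25.9%.

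Of the 731 contacts chosen without thymocyte library 1, 37.6% had a ratio of at most 1 in it, against 42.5% of all contacts and 26.1% of the contacts at 1.5 or more in both keratinocyte libraries. For thymocyte library 2 the shares were 45.5% of 605 contacts, 45.0% of all contacts and 31.6%. In 3 of the 4 libraries, therefore, contacts chosen in the others met the threshold about as often as all contacts, or less often, and only keratinocyte library 1 stood above that level. In each of the 4 libraries the share was above that of contacts chosen in the other cell type alone.

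**Figure D1:**
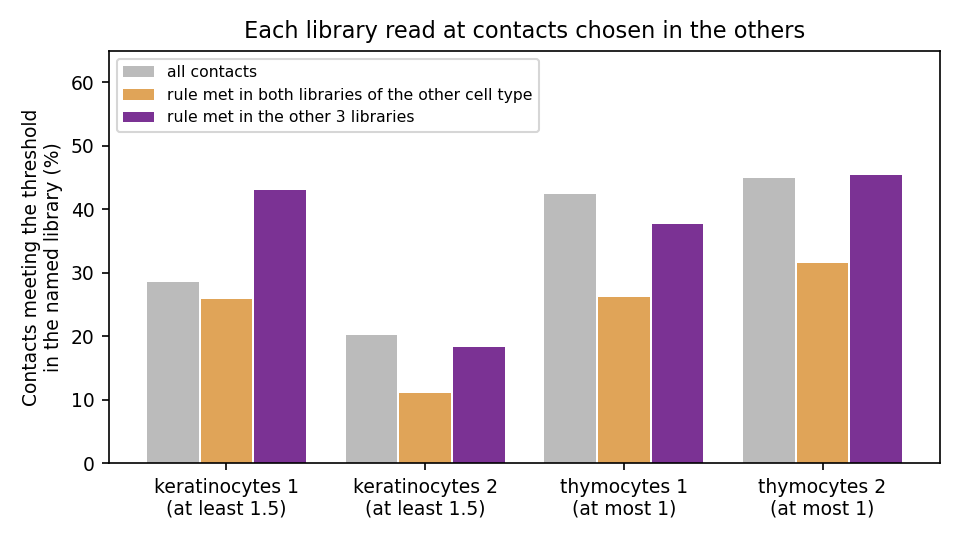
Bars show the share of contacts (percent, vertical axis) that met the threshold in the library named below, among all 23395 contacts (grey), contacts that met the rule in both libraries of the other cell type (orange) and contacts that met it in the other 3 libraries (purple). The purple bar stands above the grey one clearly in keratinocyte library 1 (43.1% against 28.6%), and above the orange one in every library.

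The listing of contacts also limits what the rule can hold. Both keratinocyte libraries listed 57186 contacts, of which 5473 had a ratio of at least 1.5 in both. Both thymocyte libraries listed 2316 of these (9.9% of the contacts listed in all 4), a single thymocyte library listed 1792 and neither listed 1365. The 275 contacts come from the 2316, of which 515 were at least 1.5 in both thymocyte libraries as well and the remaining 1526 met neither condition in both. Of the 1792 contacts listed in a single thymocyte library, 784 had a ratio of at most 1 there. The 1365 contacts with no thymocyte value had a median distance of 2294 kb, against 1092 kb for the 2316.

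The contacts enriched only in keratinocytes were long. Their median distance was 1808 kb, with quartiles of 939 and 2677 kb, whereas all contacts had a median of 934 kb with quartiles of 303 and 2103 kb. The contacts enriched only in thymocytes had a median of 1358 kb, and those enriched in all 4 libraries a median of 547 kb. A distance of at least 1000 kb was found in 72.4% of the keratinocyte contacts and in 48.2% of all contacts. The share of listed contacts that met the rule was 0.224% below 50 kb, 0.308% from 50 to 200 kb and 0.631% from 200 to 500 kb. It was 1.02% from 500 to 1000 kb, 1.55% from 1000 to 2000 kb, 2.22% from 2000 to 3000 kb and 1.60% beyond. The share of contacts enriched only in thymocytes was 0.449% below 50 kb and 1.18% from 2000 to 3000 kb, and contacts enriched in all 4 libraries fell from 3.66% to 1.95% between the same ranges.

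The ratios of single libraries also varied with distance. In keratinocyte library 1 the share of all contacts with a ratio of at least 1.5 was 23.2% below 50 kb and 31.8% from 1000 to 2000 kb. In keratinocyte library 2 it was 19.5% below 50 kb and 22.5% from 2000 to 3000 kb. The share with a ratio of at most 1 in thymocyte library 2 was 40.5% below 50 kb and 56.4% from 2000 to 3000 kb, and in thymocyte library 1 it was 43.6% and 44.5%. The part of these shifts in the rise with distance was not tested.

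**Figure D2:**
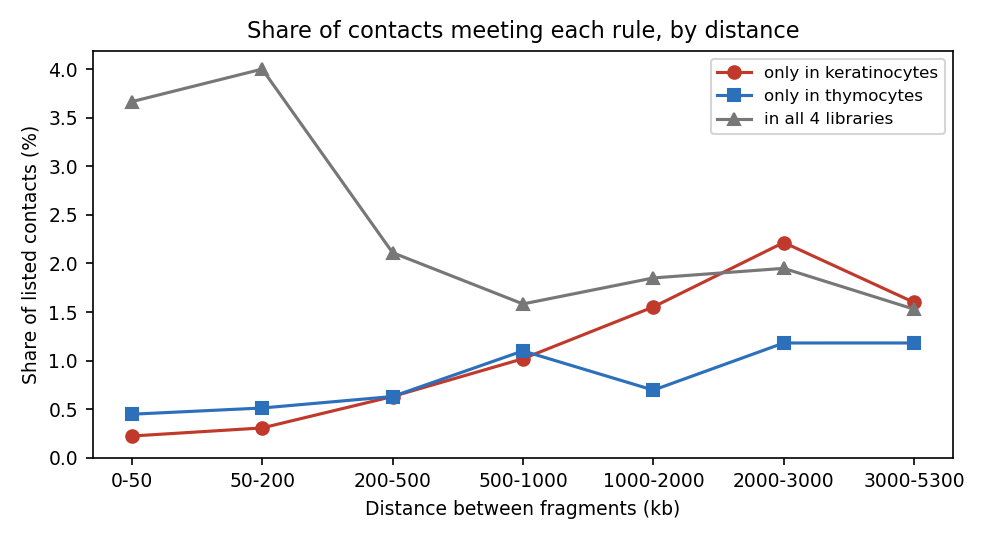
Each point is the share (percent, vertical axis) of the contacts listed in all 4 libraries in a range of distance (kb, horizontal axis) that met the rule for keratinocytes only (red circles), thymocytes only (blue squares) or a ratio of at least 1.5 in all 4 libraries (grey triangles). The keratinocyte share is lowest below 50 kb (0.224%) and highest from 2000 to 3000 kb (2.22%), while the share enriched in all 4 libraries is highest from 50 to 200 kb (4%).

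Only 3 of the 275 contacts spanned less than 50 kb. At one of them the forward fragment 1593 and the reverse fragment 1594, neighbours in the genome within 5 kb of the start of Pi4kb, a phosphatidylinositol kinase gene near enhancer E14, had keratinocyte ratios of 4.06 and 1.51. Its corrected frequency, the highest of the 275 in each library, was 35880 and 12809.5 in keratinocytes, below 53158 and 62010 in thymocytes. Another joined fragments 16 kb apart near Rps27, a ribosomal protein gene, and enhancer E1 in TAD1. Its ratios were 2.29 and 2.38 in keratinocytes and 0.930 and 0.0797 in thymocytes. The last joined fragments 2 kb apart near Sema6c in TAD7, with ratios of 1.56 and 1.55 against 0.791 and 0.611. The corrected frequency of this contact was also lower in keratinocytes (7747 and 7796) than in thymocytes (13311 and 17644.5). These were rare cases, since 1337 contacts under 50 kb were listed.

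Most of the contacts joined different TADs. Fragments were placed in the 7 TADs by their midpoints and the study's average keratinocyte borders, at 90.635, 91.895, 92.72, 93.53, 94.0025 and 94.8275 Mb. By these borders 229 of the 275 contacts (83.3%, 95% Wilson interval 78.4% to 87.2%) joined 2 TADs, against 68.5% of all contacts and 80.7% of those enriched only in thymocytes. This interval covers the counting of contacts only, and contacts that share a fragment are not independent. At matched distance the excess was not seen in the ranges with many contacts of both kinds. From 500 to 1000 kb the rule was met by 0.946% of the 3064 contacts between TADs and by 1.36% of the 662 contacts within TADs. From 200 to 500 kb it was met by 0.0751% of 1332 contacts between TADs and 0.896% of 2789 within them.

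Among the 28 pairs of TADs, the contacts were most frequent between TAD1, with the S100 genes, and TAD4, with the filaggrin-like and Lce3 genes. That pair held 42 of the 275 contacts (15.3%) and 6.10% of all contacts, so 2.95% of its 1426 contacts met the rule. The TAD4 to TAD6 pair held 31, TAD1 to TAD6 held 28, TAD3 to TAD4 held 26 and TAD2 to TAD4 held 25. The shares of the contacts of these pairs that met the rule were 1.79%, 2.16%, 1.04% and 1.93%. A fragment of TAD4 stood at one end or both ends of 141 of the 275 contacts (51.3%), against 41.5% of all contacts. Between the 5th and 95th percentiles of distance of the TAD1 to TAD4 contacts, 1.74% of the 1209 contacts of other pairs met the rule, against 2.95% for this pair. For TAD4 to TAD6 the pair had 1.79% and the others 1.41%, and for TAD1 to TAD6 the values were 2.16% and 0.830%. The 0.830% rests on 4 of 482 contacts of other pairs. Other pairs lay below contacts of like distance, with 1.37% against 2.17% for TAD1 to TAD3, 1.05% against 2.31% for TAD3 to TAD6 and 1.64% against 2.64% for TAD3 to TAD7. Of the 14 pairs of different TADs with at least 300 contacts, 5 lay above the others at like distance and 9 below.

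TAD1 to TAD3 held 15 contacts, TAD1 alone held 12, TAD2 to TAD3 and TAD3 alone held 11 each, and TAD3 to TAD6 held 10. TAD1 to TAD7, TAD2 to TAD6 and TAD4 to TAD7 held 9 each, TAD4 alone and TAD6 alone held 8 each, and TAD3 to TAD7 held 6. TAD2 alone held 4, TAD6 to TAD7 and TAD7 alone held 3 each, TAD2 to TAD5 held 2, and TAD1 to TAD2, TAD1 to TAD5 and TAD5 to TAD6 held 1 each. The other pairs, which are TAD2 to TAD7, TAD3 to TAD5, TAD4 to TAD5, TAD5 alone and TAD5 to TAD7, held 0. For neighbouring TADs at either end of the locus the order of the cell types was turned. TAD1 to TAD2 held 1 contact enriched only in keratinocytes and 11 enriched only in thymocytes among 608, and TAD6 to TAD7 held 3 and 20 among 1095.

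Only 102 contacts between the gene-poor domains TAD2 and TAD5 were listed in all 4 libraries. The rule was met by 2 of them (1.96%), near the 2.02% of other pairs at like distance, and they made up 0.727% of the 275 and 0.436% of all contacts. Of the 102, 7 (6.86%) had a ratio of at least 1.5 in all 4 libraries, against 2.2% of all contacts. Those enriched only in thymocytes numbered 0. With the rule in 3 libraries, this pair held 22 of 1286 contacts (1.71%) without thymocyte library 1, against 0.391% of all contacts. Without thymocyte library 2 it held 12 of 834 (1.44%), against 0.433%. Without keratinocyte library 1 or 2 the shares were 0.435% and 0.640%, against 0.419% and 0.418%. A fragment of TAD2 stood in 18.9% of the 275 and in 18.2% of all contacts. Contacts that linked a gene-rich TAD with TAD2 or TAD5 made up 17.5% of the 275 and 18.0% of all contacts, whereas contacts between different gene-rich TADs made up 65.1% and 50.1%. Contacts within a gene-rich TAD made up 15.3% of the 275 and 29.5% of all contacts.

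**Figure D3:**
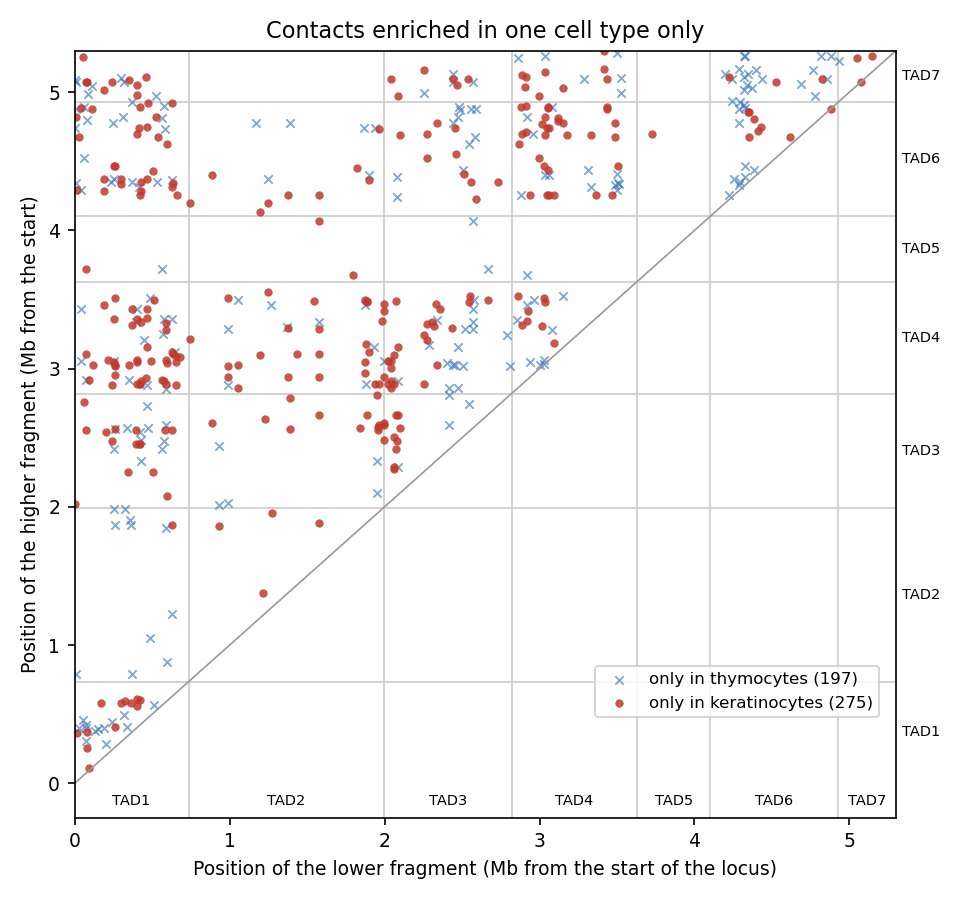
Each point is a contact, placed by the midpoints of its lower fragment (horizontal axis) and its higher fragment (vertical axis), both in Mb from the start of the first fragment, with TAD borders as grey lines and the diagonal marking equal positions. Red circles are the 275 contacts enriched only in keratinocytes, among which 42 lie in the field of TAD1 with TAD4, and blue crosses are the 197 enriched only in thymocytes, among which 20 lie in the field of TAD6 with TAD7.

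**Figure D4:**
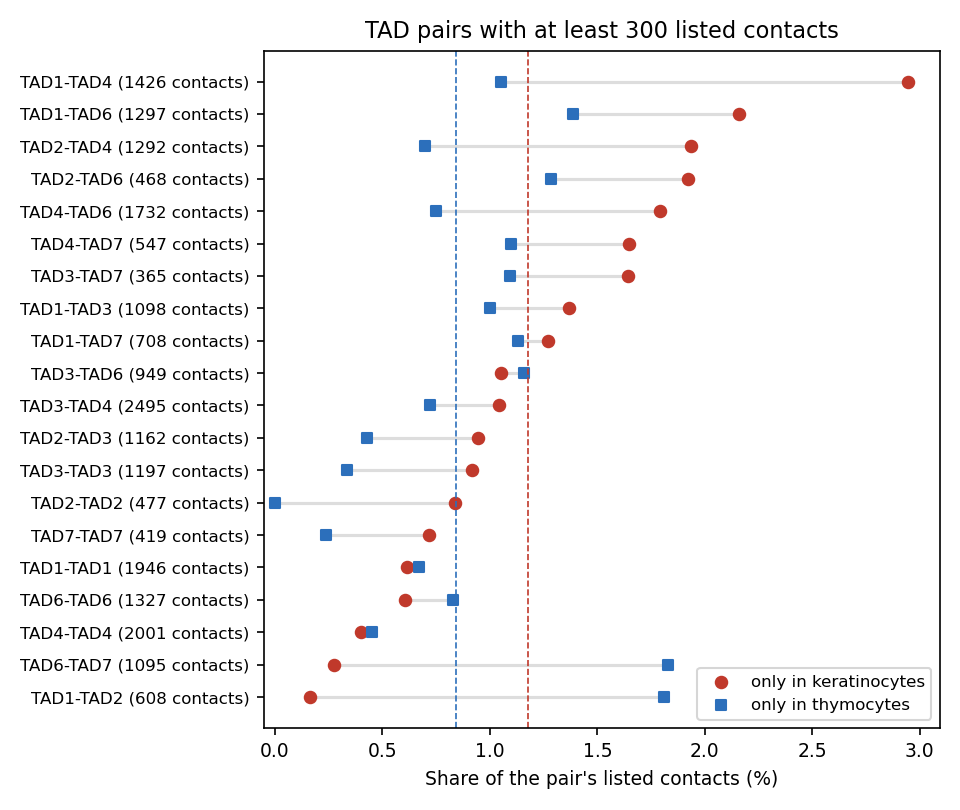
For each pair of TADs with at least 300 listed contacts (rows), the points give the share of its contacts (percent, horizontal axis) enriched only in keratinocytes (red circles) and only in thymocytes (blue squares), and dashed lines mark both shares over all contacts (1.18% and 0.842%). TAD1 with TAD4 has the highest red share (2.95%), and the blue share lies furthest above the red one in TAD1 with TAD2 and TAD6 with TAD7, and by less in TAD3 with TAD6 and within TAD1, TAD4 and TAD6.

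The strongest contact by the gap between cell types, contact 1, joined Flg2 to a region of the gene-poor TAD2. Its forward fragment (chr3:93005366-93028846) lay 1.2 kb from the start of Flg2, a gene for a filaggrin-like protein of the cornified layer, and its reverse fragment (chr3:91802278-91803109) lay 15.4 kb from Pglyrp3, which encodes a peptidoglycan recognition protein. The ratios were 2.06 and 3.05 in keratinocytes and 0.252 and 0.200 in thymocytes. The corrected frequencies were 205 and 167 in keratinocytes and 15.1 and 11.5 in thymocytes, across 1202 kb. All keratinocyte values lay above all thymocyte values, as they do by rule for the ratio at each of the 275 contacts.

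Contact 4 joined S100 genes within TAD1. It linked a fragment (chr3:90501782-90510208) 2.1 kb from the start of S100a9, which encodes one chain of calprotectin, to a fragment (chr3:90322416-90322860) in S100a13 and near the enhancer cluster E2/E3, across 179 kb. Its ratios were 1.67 and 2.79 in keratinocytes and 0.180 and 0.255 in thymocytes. The frequencies were 914 and 861 in keratinocytes against 36.0 and 59.0 in thymocytes, the highest keratinocyte values among the 10 contacts.

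Contact 5 had the highest keratinocyte ratios of the 10, at 4.30 and 4.58, beside 0.381 and 0.703 in thymocytes. It joined a fragment (chr3:92236018-92237476) at the start of Sprr2k, a gene of the small proline-rich cluster in TAD3, to a fragment within Pogz (chr3:94677696-94678875) that lay 12 kb from the start of Psmb4, a proteasome subunit gene, in TAD6. The q-values were 2.05e-05 and 1.07e-10 in keratinocytes and 0.8002 and 0.751 in thymocytes. The fragments lay 2440 kb apart, with the Lce and filaggrin-like genes between them.

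Contact 8 joined a fragment (chr3:93332462-93333219) 8.1 kb from S100a11 in TAD4 to a fragment (chr3:90266498-90272128) at the start of Npr1, a natriuretic peptide receptor gene in TAD1, across 3060 kb. Its ratios were 3.56 and 4.06 in keratinocytes and 0.402 and 0.612 in thymocytes. Contact 9 lay within TAD4, 423 kb apart, and joined a fragment (chr3:92815150-92818139) near Crct1 and Lce1m to one (chr3:93240815-93247426) at Tchh, which encodes trichohyalin, a structural protein of the hair follicle. Its ratios were 2.48 and 2.29 in keratinocytes and 0.296 and 0.428 in thymocytes. Both contacts had q-values under 0.05 in both keratinocyte libraries, as did contacts 2, 3, 5 and 6 of the 10.

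Contacts 6 and 7 both started within 10 kb of enhancer E13, in fragments that overlap Cgn, the gene of the tight junction protein cingulin in TAD6. The neighbouring fragments forward 1522 (chr3:94573683-94575930) and reverse 1523 (chr3:94575931-94576934) met different fragments of TAD1, near S100a6 and in Nup210l, at 4132 and 4645 kb. Contact 6 had ratios of 2.55 and 3.28 in keratinocytes and 0.421 and 0.0798 in thymocytes, and contact 7 had 2.01 and 2.45 against 0.340 and 0.132.

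The other 3 contacts, like contacts 6 and 7, had no start site of a coding gene within 5 kb of either fragment. Contact 3 joined a fragment in Gatad2b, which encodes a subunit of a chromatin remodelling complex, to one in Snx27, a sorting nexin gene, with ratios of 2.52 and 3.17 against 0.189 and 0.375. Contact 2 joined the Gabpb2 gene in TAD7 to a fragment 33.9 kb from Sprr4, with ratios of 3.36 and 2.71 against 0.306 and 0.356. Contact 10 joined Pip5k1a in TAD7 to a fragment 31.6 kb from Sprr2a1, with ratios of 2.52 and 3.30 against 0.420 and 0.527. Of the 10 contacts, 8 joined different TADs, and both contacts of TAD7 ended in TAD3.

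**Figure D5:**
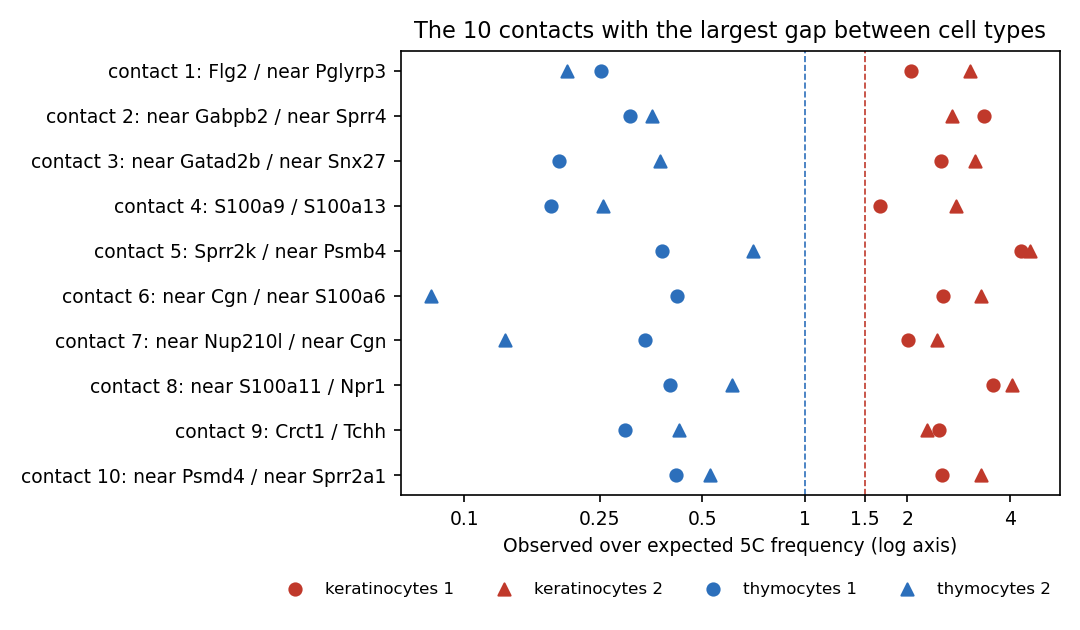
Rows are the 10 contacts with the largest log2 gap between the lower keratinocyte and the higher thymocyte ratio, named by the nearest genes, and points give the observed over expected 5C frequency (log axis) in each of the 4 libraries, red for keratinocytes and blue for thymocytes. Dashed lines mark the limits of the rule at 1 and 1.5, and the widest spread between libraries of a cell type is in the thymocyte values of contact 6 (0.421 and 0.0798).

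The contacts were spread over many fragments. Of the 640 fragments, 310 carried at least 1 of the 275 contacts, 171 of them exactly 1, 82 exactly 2 and 57 at least 3. The 10 fragments with most contacts were at an end of 56 of the 275 (20.4%). They were ranked by this same count, so the ranking partly sets this share. Each had 105 to 133 listed contacts, against a median of 85.5 over all fragments. The rule was met by 3.82% to 7.52% of these, against 1.18% of all contacts. Of the 249 fragments with a contact enriched only in thymocytes, 157 also carried one enriched only in keratinocytes.

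The fragment with most contacts was reverse 1415 in TAD6, 6.9 kb from the start of Them5, an acyl-CoA thioesterase gene. Of the 133 contacts listed for it, 3 were enriched only in thymocytes. The 10 enriched only in keratinocytes (7.52%) all joined other TADs, at 784 to 3830 kb. Their ratios ranged from 2.00 to 5.58 in keratinocyte library 1, from 1.62 to 3.00 in keratinocyte library 2, from 0.491 to 0.942 in thymocyte library 1 and from 0.452 to 0.994 in thymocyte library 2. Over all 133 contacts of this fragment the median ratio was 1.12, 0.790, 0.855 and 0.768, so in 3 of the libraries its contacts lay mostly below the expected frequency.

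In TAD4 the partners of reverse 1415 were fragments at or near Crnn (cornulin), Flg2, Tchhl1, Lce1m and the enhancer E11 by S100a10. The contact with the fragment 4.6 kb from Flg2 (chr3:92993662-92999573) had ratios of 3.87 and 3.00 in keratinocytes and 0.491 and 0.683 in thymocytes. In TAD1 a partner was the fragment at S100a1 and S100a13 beside the enhancer cluster E2/E3 (chr3:90316587-90322415), with ratios of 2.74 and 2.22 against 0.661 and 0.567. The partners in TAD2 lay more than 300 kb from a coding start site, and one of them (chr3:91274127-91275028) had the highest ratio in keratinocyte library 1, at 5.58, beside 2.64, 0.847 and 0.602.

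The next fragment, reverse 966, lay 9.7 kb from Lce3f in TAD4 and carried 8 contacts of 124, beside 1 enriched only in thymocytes. Its partners included the same S100a1 and S100a13 fragment, with ratios of 3.99 and 1.83 against 0.696 and 0.533, and a fragment 4.1 kb from the start of Cgn near E13, with 2.08 and 2.64 against 0.728 and 0.731. Reverse 1415 and reverse 966 thus both had a chosen contact with the fragment beside E2/E3. Reverse 685 lay at the start of TAD3, 10.6 kb from Lor (loricrin), and carried 6 contacts of 106, beside 1 enriched only in thymocytes.

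The partners of reverse 685 near cornified envelope genes were at Ivl, Lce1d and Lce1e. The Lce1e contact had ratios of 6.63 and 3.03 in keratinocytes and 0.993 and 0.727 in thymocytes, and the Ivl contact had 3.11 and 2.04 against 0.852 and 0.547. Keratinocyte library 1 gave the higher value at all 6 contacts of reverse 685, whose ratios in it had a median of 4.71 against 2.03 in library 2. In keratinocyte library 1 the median ratio over all 106 contacts of this fragment was 1.33, and it was 1.05, 0.957 and 0.971 in the other libraries.

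The other fragments among the 10 carried 5 contacts each. They were reverse 197 at Pglyrp4, reverse 701 at Lelp1, forward 986 near Lce1m, forward 1144 near S100a11, forward 919 at Lce1h, reverse 143 beside the enhancer cluster E4-E7 and forward 1027 near Crnn. The number of contacts listed for these fragments ranged from 105 to 131. The fragments with at least 3 contacts had a median of 122 listed contacts, against 41.5 for the fragments with none. Fragments with over 100 listed contacts met the rule at 1.17% of their contact ends, those with 51 to 100 at 0.935% and those with 1 to 50 at 2.15%. The shares enriched only in thymocytes were 0.701%, 0.785% and 2.36% in the same order.

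Contacts enriched only in keratinocytes occurred in each gene group of the locus. The share of contacts with a fragment within 5 kb of a start site of the group was highest for Lor, Prr9 and Lelp1, at 7 of 239 (2.93%), with all 7 between TADs. Lelp1, a gene for a proline-rich protein, had 5 of its 120, Lor had 1 of 113 and Prr9 had 1 of 7. The Pglyrp genes followed with 7 of 359 (1.95%), all at Pglyrp4 and none among the 106 contacts of Pglyrp3. The S100 genes of TAD1 had 23 of 1251 (1.84%), with 8 of 375 at S100a1 and S100a13, which share their fragments, 5 of 231 at S100a9 and 4 of 191 at S100a14. Contacts enriched only in thymocytes numbered 3 in the group of Lor (1.26%), 3 at the Pglyrp genes (0.836%) and 16 at the S100 genes of TAD1 (1.28%). Over all contacts the share enriched only in thymocytes was 0.842%.

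The filaggrin-like genes had 27 of 1885 (1.43%), and 9 contacts enriched only in thymocytes (0.477%). In this group Flg2 had 11 of 525 and Crnn 7 of 375, whereas Flg had 3 of 215 and Rptn 2 of 614. Of the 27 contacts, 25 joined different TADs. The share was thus 2.10% at Flg2 and 0.326% at Rptn.

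The remaining groups lay near or below the 1.18% of all contacts. No share of a gene group was matched for distance. The contacts of the S100 genes of TAD1 had a median distance of 1820 kb, against 934 kb for all contacts. From 1000 to 2000 kb, 1.55% of all contacts met the rule. The Lce1 genes with Kprp and Lce6a had 29 of 2889 (1.00%), led by Lce1a1 with 8 of 664 and Lce1h with 5 of 127. The Sprr genes had 17 of 1767 (0.962%), led by Sprr2e and Sprr2g with 5 each, and the Lce3 genes with Crct1 had 8 of 895 (0.894%). Ivl and Smcp had 3 of 232, all at Ivl, S100a10 and S100a11 had 2 of 302, and the Tdpoz genes of TAD5 had 1 of 82. The broadly expressed genes of TAD1 had 25 of 2284 (1.09%), led by Snapin, which encodes a SNARE-associated protein, with 6 of 330. The genes of TAD6 had 28 of 2755 (1.02%), led by Cgn with 8 of 338 and the mitochondrial ribosomal gene Mrpl9 with 6 of 365, and those of TAD7 had 11 of 1289 (0.853%). Contacts enriched only in thymocytes outnumbered those enriched only in keratinocytes in the Lce3 group, with 10, and at Ivl and Smcp, with 5. They also did so at S100a10 and S100a11 with 3, at the TAD6 genes with 34 and at the TAD7 genes with 14.

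A start site at one end or both ends was no more frequent than among all contacts. Of the 275 contacts, 158 (57.5%) had a coding start site within 5 kb of at least 1 fragment, against 60.3% of all contacts, and 34 (12.4%) had one at both ends, against 13.8%. A putative enhancer of the study, from the 16 regions marked by histone modifications in basal keratinocytes, lay within 10 kb of at least 1 fragment in 67 contacts (24.4%), against 22.9% of all contacts. The Wilson intervals of the 275 were 51.5% to 63.2% for the start sites and 19.7% to 29.8% for the enhancers. An enhancer at one end and a start site at the other were found in 22 contacts (8%), against 8.71% of all contacts.

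The enhancers differed among themselves, in shares that were not matched for distance. Enhancer E13 in TAD6 had 13 of 479 contacts (2.71%), 11 of which joined other TADs, beside 3 enriched only in thymocytes. The cluster E2/E3 in TAD1 had 10 of 518 (1.93%), the cluster E4-E7 had 11 of 782 (1.41%), and E9 in TAD4 had 18 of 1286 (1.40%). Contacts enriched only in thymocytes numbered 6 at E2/E3, 9 at E4-E7 and 11 at E9. E11 had 4 of 350, E1 had 3 of 271, E14 had 9 of 1061, E15 had 3 of 330 and E12 had 1 of 132. E8, E10 and E16 had 0 of 88, 390 and 8 contacts.

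Part of the contacts lay close to each other on the map. The contacts of a group join the same regions by the way groups were formed. Contacts were grouped when both ends lay within 50 kb of those of another, which placed 122 of the 275 (44.4%) in 44 groups, against 32.5% of the contacts enriched only in thymocytes and 66.0% of those enriched in all 4 libraries. These lists hold 197 and 515 contacts, and a longer list places more of its contacts within 50 kb of each other, so the shares are not on an equal footing. The largest group had 7 contacts, with 7 different forward and 7 different reverse fragments. It joined the region of S100a9 and Pglyrp4 (chr3:90488683-90577136) to that of Crnn and Flg2 (chr3:92934735-93028846), over 2391 to 2473 kb. The median ratios of these 7 contacts were 1.99 and 1.78 in keratinocytes and 0.666 and 0.812 in thymocytes. Of the 46 contacts listed between these regions, 1 was enriched only in thymocytes, and the 39 that were not enriched only in keratinocytes had a median difference of 0.18 between the cell types in mean log2 ratio, keratinocytes minus thymocytes. Over the 18 groups of at least 3 contacts this median ranged from -0.57 to 1.13, and it was above 0 in 15 and below 0 in 3. The highest value rests on 2 other contacts and the lowest on 9, and some groups had only 1 or 2. The regions were drawn around the chosen contacts, so these counts give no separate support.

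The next group, with 6 contacts, lay within TAD1. It joined the region of Npr1, Snapin, S100a1 and S100a13 (chr3:90191411-90322860) to that of S100a7a and S100a9 (chr3:90459180-90512067), at 157 to 278 kb. Its median ratios were 1.65 and 2.60 in keratinocytes and 0.679 and 0.402 in thymocytes, and the other 117 contacts between these regions had a median difference of 0.47. Groups of 5 contacts joined the TAD2 to TAD3 border near Lor to the Lce1 genes, the Lelp1 region to Lce3d, and the region of Chtop, S100a1 and S100a14 to that of Lce1m. The groups were formed from the chosen contacts themselves, so their size carries no test.

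The contacts next to the chosen ones moved in the same direction by less. For contacts with the same forward fragment and the neighbouring reverse fragment, leaving out those that met either rule, the median difference in mean log2 ratio between the cell types was 0.21 (173 contacts). For the same reverse fragment and the neighbouring forward fragment it was 0.17 (181 contacts), and with both fragments moved by one it was 0.14 (273 contacts). Over all contacts the median was -0.0034. Next to the contacts enriched only in thymocytes the medians were -0.14, -0.20 and -0.14. These neighbours share a fragment with a chosen contact, or lie beside it, and their own ratios did not choose it. They were not matched for distance to all contacts, and the part of distance and of shared fragments in the difference was not tested. With both fragments moved, the quartiles were -0.35 and 0.61, so single neighbours lay on either side of 0.

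The fragments themselves differed little in sequence. The fragments with at least 3 of the contacts had a median length of 2248 bp and a median GC content of 42.9%, against 2184 bp and 42.3% over all 640 fragments. Forward probes made up 52.6% of them and 49.5% of all. A start site lay within 5 kb of 31.6% of them, against 38.4% of all fragments, and an enhancer within 10 kb of 17.5%, against 13.1%.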

How the data were processed

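One table of each 5C library was used, with 2 libraries of keratinocytes and 2 of thymocytes named from the sample titles. The authors aligned reads to the probe sequences (Bowtie is named in the submitters' notes, with mm9), removed poorly performing probes and extreme single contacts, and used a Loess fit to level the coverage of the probes. The deposited signal of a contact is this corrected frequency, beside the expected frequency at its distance and a standard deviation. The deposited score is the Z score. A p-value and q-value of each contact, from a Weibull fit, were also deposited by the authors, and the other deposited values are fragment coordinates and distance.

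The ratio was the frequency divided by the expected frequency. The contacts and the gene lists were chosen with earlier results of these data known. TAD borders, enhancers and probe sequences came from the study's supplement, and coding start sites from GENCODE M1 (mm9), where 113 of 145 genes had a fragment within 5 kb and the names S100a2 and Scnm1 of the lists were not found as coding genes. The 10 contacts named singly have the largest log2 gap, and the 10 fragments named have most contacts. Up to 4 genes of a group with most contacts are named. Pandas 2.3.3, scipy 1.17.1, networkx 3.6.1 and pysam 0.24.0 were used. The selection code was run on simulated data, where it returned 200 of 200 planted contacts among 1119 with 0 false ones. The planted ratios were drawn inside the rule and the others could not meet it, so this checks the code and gives no error rate. Raw counts were not used here, so the depth is unknown. Intervals are 95% Wilson intervals and cover the counting of contacts only.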

Additional observations from a re-analysis of the deposited data

How the results depend on the processing

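The number of contacts followed the thresholds. It was 80 with a keratinocyte minimum of 2 and 626 with one loosened to midway between 1 and 1.5, and 97 with a thymocyte maximum of 0.75 and 620 with one loosened to the same midpoint. Requiring a listing and the rule in only 3 libraries gave 690 contacts without keratinocyte library 1, 1718 without keratinocyte library 2, 1286 without thymocyte library 1 and 834 without thymocyte library 2. Dividing each library's ratios by their median (220 contacts) and dropping contacts under 20 kb (272) kept the number within 1.5 times.

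The median distance was above that of all contacts in all 10 alternatives tried, and moved beyond its exact order-statistic interval of 1652 to 2003 kb with a keratinocyte minimum of 2 (2318.5 kb), the loosened thymocyte maximum (1509 kb), without keratinocyte library 1 (1643.5 kb) and without keratinocyte library 2 (1323 kb). Over the libraries left out it ranged from 1323 to 1972 kb. The share between TADs was above that of all contacts in all 13 alternatives. It was 78.1% with the loosened keratinocyte minimum, 77.6% with the loosened thymocyte maximum, 87.3% with the average thymocyte borders, and from 74.2% to 84.9% over the libraries left out, with the lowest value without keratinocyte library 2. The share joining TAD2 and TAD5 was 0 with a keratinocyte minimum of 2 and with a thymocyte maximum of 0.75, and from 0.435% to 1.71% over the libraries left out. It was 1.71% without thymocyte library 1 and 1.44% without thymocyte library 2, where all contacts had 0.391% and 0.433%.

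The share with a start site was 20% (16.3% of all contacts) for a site within the fragment and 79.3% (78.7%) within 10 kb, and from 58.2% to 61.2% over the libraries left out. The share with an enhancer was 8% (6.14%) for an overlap and 32% (31.8%) within 20 kb, and from 22.2% to 25.7% over the libraries left out. Stricter limits pass fewer contacts and looser ones or fewer libraries pass more by construction. The cause of the shifts in distance and in the shares was not tested. No paired analysis was possible because every result is a count, share or median over contacts that all 4 libraries chose, with no fit that could take a replicate block.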
